A study of Homo sapiens with 8 samples.

Results

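The 6 genes described here, IGF2BP1, IGF2BP2, IGF2BP3, LIN28B, HMGA1 and HMGA2, were grouped as oncofetal genes whose mRNAs are known targets of the let-7 microRNAs. They were found by symbol among 60651 genes counted by RNA-seq, and by the gene symbol in the names of the polyadenylation sites (PASs) counted by 3′ end sequencing, where 132 of 228494 listed PASs named one of them alone. The cells were HEK293T APA cells, a human embryonic kidney line that stably carries an alternative polyadenylation (APA) reporter. All of them received dPguCas13b, a nuclease-dead Cas13b that is guided to RNA and does not cut it. The gNT libraries came from cells given a non-targeting gRNA, and the gUSE libraries from cells given a gRNA against the upstream element of the reporter's PAS. Cells were collected 48 h after transfection, and each assay had 2 libraries per gRNA, 8 in all. The comparison asks whether a gRNA aimed at the reporter leaves endogenous genes and their PASs as they were. The sources do not say whether the 2 libraries of a group came from separate cultures, so that the p-values measure the spread between these libraries, which may be technical.

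let-7 microRNAs accumulate as cells differentiate, and they repress mRNAs that carry matches to their seed, mostly in the 3′ untranslated region (UTR). LIN28B binds let-7 precursors and blocks their maturation, and its own mRNA carries let-7 sites, so that the pair repress each other. The IGF2BP proteins bind mRNAs and affect their stability, transport and translation, and the HMGA proteins bend AT-rich DNA in chromatin. Most of them are typical of embryonic tissue and of many tumours. Where an mRNA is cleaved decides which let-7 sites it keeps: a proximal PAS, close to the stop codon, gives a short 3′ UTR, and a distal PAS gives a long one.

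The let-7 family was represented in RefSeq (GRCh38.p14) by 12 genes with 9 mature sequences, and all shared the same seed, bases 2 to 8. Of these, 4 are shown here because they differ outside the seed, which is in capitals.
hsa-let-7a-5p: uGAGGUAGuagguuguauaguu
hsa-let-7d-5p: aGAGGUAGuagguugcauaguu
hsa-let-7g-5p: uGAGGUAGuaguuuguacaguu
hsa-miR-98-5p: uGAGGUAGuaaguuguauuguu
A site was counted where the sense strand of the annotated 3′ UTR held CTACCTCA (8mer), CTACCTC (7mer-m8) or TACCTCA (7mer-A1), each position being given its longest match. The microRNAs themselves were not measured in these libraries.

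The canonical 3′ UTRs of the 6 genes held 22 let-7 sites in all, on GRCh38 with GENCODE v44. HMGA2 held 7 in a UTR of 2999 nt, IGF2BP1 5 in 6701 nt, LIN28B 5 in 4549 nt and IGF2BP2 3 in 2401 nt. IGF2BP3 (2153 nt) and HMGA1 (1347 nt) held 1 each. Of 19550 annotated 3′ UTRs, 15.8% held at least 1 site, 0.639% held at least 3, 0.0563% at least 5 and 0.0102% at least 7. The 6 genes are among these UTRs and were chosen as known let-7 targets, so that such shares are no test. Long UTRs hold more sites, so each UTR at least as long as a member's was cut to that length from the stop codon. The member's own UTR was counted too. At least as many sites as in IGF2BP1 were found in 0.466% of 644 such windows, and as in LIN28B in 0.121% of 1657. For IGF2BP2 the share was 0.284% of 4924, and for HMGA2 0.0278% of 3602. The share with a site at all was 20.5% for the length of IGF2BP3 and 13.5% for that of HMGA1. A match to these letters describes the sequence and does not show that let-7 acts there.

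The first let-7 site after the stop codon and the last before the annotated end decide whether a short 3′ UTR keeps none or all of the sites. How many remain after cleavage between them depends on the inner sites, which are not printed. The first and last sites are printed here with their flank and with the match in capitals.
IGF2BP1 site 1, chr17:49051062-49051083, plus strand: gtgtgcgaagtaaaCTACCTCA
IGF2BP1 site 5, chr17:49054997-49055018, plus strand: tcacttttgttttatCTACCTC
IGF2BP2 site 1, chr3:185644220-185644241, minus strand: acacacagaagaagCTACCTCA
IGF2BP2 site 3, chr3:185643202-185643223, minus strand: tagtaagtgcaggcaTACCTCA
IGF2BP3 site 1, chr7:23311795-23311816, minus strand: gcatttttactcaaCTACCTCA
LIN28B site 1, chr6:105078813-105078834, plus strand: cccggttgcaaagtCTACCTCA
LIN28B site 5, chr6:105083045-105083066, plus strand: gtgtagtatttagatTACCTCA
HMGA1 site 1, chr6:34245829-34245850, plus strand: tcctctgttcacaaaCTACCTC
HMGA2 site 1, chr12:65963299-65963320, plus strand: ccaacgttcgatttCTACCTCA
HMGA2 site 7, chr12:65965818-65965839, plus strand: tcttaagtcccagtaTACCTCA
All 10 lie in the 3′ UTR within the last exon of their gene. In LIN28B and HMGA2 the first site stood 43 and 20 nt after the stop codon, whereas in IGF2BP1 and IGF2BP2 it followed after 1631 and 1303 nt. The last site stood 1127 nt before the annotated end in IGF2BP1, 266 nt in LIN28B, 452 nt in HMGA2 and 72 nt in IGF2BP2.

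The depth differed between the assays. RNA-seq libraries held 10259757 to 12977693 counts, and 3′ end libraries 1593763 to 2380992 reads in the part of the PAS table analysed. Of 6 marker genes of the HEK293 line, 6 were at 1 CPM or more (counts scaled to library size) in every RNA-seq library, and their summed level was 1034 and 1037 CPM under gNT and 968 and 982 under gUSE. Most of it was IRS4, with 884 and 886 CPM under gNT and 816 and 824 under gUSE, and its part in the results was not tested. Of 7 markers of other cells 1, COL1A1, reached 1 CPM in every library. The chi-square per degree of freedom between 2 libraries, which is near 1 when they differ by sampling alone, was 1.42 to 1.57 within groups and 1.67 to 2.13 between groups.

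All 6 genes were expressed in these cells, and none of them passed the test in RNA-seq between gUSE and gNT. By RPKM, the CPM per kilobase of the gene's joined exons, HMGA1 led in gNT cells with 176 ± 4.88 (SD, n = 2). IGF2BP1 followed with 43.8 ± 0.0671 RPKM, LIN28B with 26.3 ± 0.967, IGF2BP2 with 16.96 ± 0.1997, IGF2BP3 with 10.1 ± 0.269 and HMGA2 with 5.41 ± 0.294 (SD, n = 2). Neighbours in this order did not overlap between libraries, and the order by RPKM was the same in gUSE cells. The lower end of the order by RPKM rests on the length used. HMGA2 has 15070 nt of joined exons but a canonical transcript of 4117 nt, and per kilobase of canonical transcript IGF2BP3 (20.1 ± 0.538) and HMGA2 (19.8 ± 1.08) overlapped in gNT cells. In gUSE cells HMGA2 (21.1 ± 0.840) stood above IGF2BP3 (19.6 ± 0.827) on that scale and overlapped IGF2BP2 (21.95 ± 0.806).

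In RNA-seq, IGF2BP1 (ENSG00000159217.10) had 5226 and 5438 counts under gNT and 4754 and 4273 under gUSE. Scaled for depth this was 421 and 422 CPM under gNT and 411 and 415 under gUSE. The gUSE libraries were both just below the gNT libraries, and the log2 fold change was -0.03 (95% interval -0.08 to 0.02). HMGA1 (ENSG00000137309.20) had 418 and 402 CPM under gNT and 405 and 387 under gUSE, which overlapped, with a log2 fold change of -0.05 (-0.11 to 0.01). LIN28B (ENSG00000187772.8) had 152 and 160 CPM under gNT and 146 and 162 under gUSE, so that the gUSE libraries lay on either side of the gNT libraries. Its log2 fold change was -0.03 (-0.12 to 0.07). IGF2BP2 (ENSG00000073792.16) had 89.6 and 91.1 CPM under gNT and 91.6 and 96.5 under gUSE, higher in both gUSE libraries, with a log2 fold change of 0.06 (-0.05 to 0.16). IGF2BP3 (ENSG00000136231.14) had 84.4 and 87.6 CPM under gNT and 86.3 and 81.3 under gUSE (log2 fold change -0.04, -0.15 to 0.07). HMGA2 (ENSG00000149948.14) had 78.4 and 84.7 CPM under gNT and 84.6 and 89.5 under gUSE (log2 fold change 0.09, -0.02 to 0.21).

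Single libraries moved these small values by more than 1.5 times in every gene but IGF2BP1, and no adjusted p went under 0.05. LIN28B ran from -0.10 to 0.049 and IGF2BP3 from -0.081 to 0.0046, so that both changed sign. The log2 fold change of HMGA2 was 0.04 without gNT replicate 1, 0.05 without gUSE replicate 2 and 0.15 without gNT replicate 2 (unadjusted p = 0.0227, adjusted p = 0.418 in edgeR). That of HMGA1 was -0.02 without gNT replicate 1 or gUSE replicate 2 and -0.08 without gNT replicate 2 (unadjusted p = 0.0182, adjusted p = 0.389 in edgeR) or gUSE replicate 1 (0.0264 and 0.663). IGF2BP2 was at 0.02 without gUSE replicate 2 and at 0.09 without gUSE replicate 1.

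By the quasi-likelihood F test of edgeR, with p adjusted over all genes after Benjamini and Hochberg, the adjusted p of the 6 genes ran from 0.717 (HMGA1) to 0.916 (LIN28B). None of the 6 was called, none had an unadjusted p under 0.05 (7.97% of all genes did), and DESeq2 called none. Over all genes edgeR called 0.0783%, and DESeq2 called 1 gene. The groups did not overlap for 1 gene that was lower under gUSE (IGF2BP1, where 18.9% of all genes were) and for 1 that was higher (IGF2BP2, 18.5%). The median log2 fold change of the 6 was -0.03, beside 0.00082 over all genes. The upper bounds of the intervals leave room for at most 0.21 on the log2 scale, for HMGA2, and the lower bounds for at most -0.15, for IGF2BP3. In bulk RNA fewer cells that express a gene and less RNA per cell cannot be told apart.

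The 3′ end reads, summed over the expressed PASs of a gene, gave a second measure in other libraries. A PAS was taken as expressed with at least 5 reads in 2 or more libraries. HMGA1 had 344 and 364 CPM under gNT and 379 and 403 under gUSE, and IGF2BP1 had 292 and 342 under gNT and 360 and 350 under gUSE. Both were higher in each gUSE library than in either gNT library, as were HMGA2 and LIN28B. HMGA2 had 98.0 and 101 CPM under gNT and 117 and 120 under gUSE, and LIN28B had 97.0 and 92.6 under gNT and 103 and 112 under gUSE. IGF2BP3 was the only one lower without overlap, with 48.5 and 50.3 CPM against 40.3 and 40.1. IGF2BP2 had 21.8 and 27.0 CPM under gNT and 23.04 and 12.9 under gUSE, which overlapped.

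None of these differences passed the test. The log2 fold changes were 0.18 ± 0.0817 (SE) for IGF2BP1, 0.14 ± 0.0765 for HMGA1, 0.25 ± 0.126 for HMGA2, 0.17 ± 0.132 for LIN28B, -0.29 ± 0.193 for IGF2BP3 and -0.38 ± 0.284 for IGF2BP2. The value of IGF2BP2 was -0.06 without gUSE replicate 2, -0.24 without gNT replicate 2 and -0.90 without gUSE replicate 1, and that of IGF2BP1 was 0.06 without gNT replicate 1 and 0.28 without gNT replicate 2. With the reads of all listed PASs IGF2BP2 was at -0.22. LIN28B was at 0.11 without gUSE replicate 2, and leaving out any other single library moved none of the 6 values by more than 1.5 times. The adjusted p in edgeR ran from 0.395 (IGF2BP1) to 0.681 (LIN28B), and none of the 6 was called by edgeR or DESeq2, where 0.765% of 8102 genes were by edgeR. IGF2BP1 had an unadjusted p of 0.0341 in edgeR, under 0.05 as in 11% of all genes. The groups did not overlap for 4 genes that were higher under gUSE (20.5% of all genes) and for 1 that was lower (20.8%). The median log2 fold change of the 6 was 0.16, beside 0.0044 over all genes. IGF2BP1 thus stood below the gNT libraries in RNA-seq and above them in 3′ end sequencing, and the difference between the assays was not tested.

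**Figure D1:**
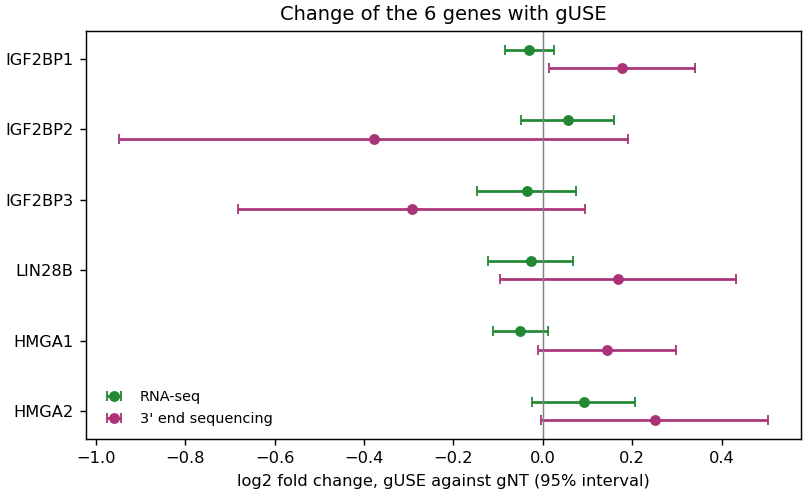
Log2 fold change of each gene, gUSE against gNT, in RNA-seq (green) and 3′ end sequencing (purple), with the 95% interval of the edgeR fit as a bar. RNA-seq values lie between -0.05 and 0.09, and 3′ end values between -0.38 and 0.25 with wider intervals.

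The yield of 3′ end reads differed between the genes. In gNT cells HMGA2 gave 16.5 reads at expressed PASs per 100 RNA-seq counts, HMGA1 11.6, IGF2BP1 10.1, LIN28B 8.27, IGF2BP3 7.77 and IGF2BP2 3.59. RNA-seq counts rise with transcript length and 3′ end reads do not, so these ratios set genes apart by length too. IGF2BP2 was the gene with the most reads at PASs that did not pass the read filter, 28.9% of its reads, none of them with more than 6 in a library. In the other genes this share was 0.237% (HMGA1) to 8.96% (IGF2BP3).

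Of the 132 listed PASs of the 6 genes 15 were expressed, 5 in IGF2BP1, 4 in IGF2BP3, 2 each in IGF2BP2 and HMGA2 and 1 each in LIN28B and HMGA1. The names of the PASs carry no genome build and are not on GRCh38, and positions are given as listed. To set PASs against let-7 sites without mixing builds, 1 listed PAS of each gene was paired with the annotated 3′ end, and distances were taken within each build. The PAS chosen was the one that put the most listed PASs 10 to 30 nt after an AATAAA or ATTAAA of the UTR. In IGF2BP1 this placed 5 PASs behind such a signal, in IGF2BP3 4, in LIN28B 3 and in HMGA2 3, and the next choice placed 1, 2, 1 and 2. In IGF2BP2 and HMGA1 it placed 2 and 1, the same as the next choice, so that distances in these 2 genes are less certain.

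At expressed PASs, the reads of LIN28B, HMGA1 and HMGA2 kept the whole set of let-7 sites in all 4 libraries. Reads at other listed PASs, 1.99% in LIN28B, 0.237% in HMGA1 and 3.64% in HMGA2, were not set against the sites. In LIN28B the only expressed PAS (chromosome 6, 105531207) was the one paired with the annotated end, with 200 and 127 reads under gNT and 196 and 165 under gUSE. In HMGA1 the only expressed PAS (chromosome 6, 34213898 to 34214008) had 709 and 499 reads under gNT and 723 and 593 under gUSE. Nearly all reads of these genes ended there. With every listed PAS in the denominator the share of the distal PAS was 98.6% under gNT and 97.5% under gUSE in LIN28B, and 99.7% under both in HMGA1. A single expressed PAS gives no test of usage.

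HMGA2 used a pair of PASs 72 nt apart, and both lie past its last let-7 site. The inner one (chromosome 12, 66359999) had 184 and 118 reads under gNT and 212 and 150 under gUSE, a usage of 91.1% and 84.9% under gNT and of 94.6% and 85.2% under gUSE. The outer one (66360071) had 18 and 21 reads under gNT and 12 and 26 under gUSE. The groups overlapped, and the change in usage of the outer PAS was -0.02 (adjusted p = 1.00 in edgeR). Both forms keep all 7 sites, so that the balance between them does not alter the let-7 sites of the mRNA.

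IGF2BP1 ended mostly at its annotated end, and the gNT and gUSE libraries overlapped at all 5 of its expressed PASs. The distal PAS (chromosome 17, 47133507) had 513 and 409 reads under gNT and 585 and 445 under gUSE. Its usage was 86.1% ± 1.51 (SD, n = 2) under gNT and 85.6% ± 0.856 under gUSE. With every listed PAS in the denominator the direction turned and the groups did not overlap, with 82.2% and 83.3% under gNT and 83.9% and 85.4% under gUSE (adjusted p = 0.965 in edgeR with every PAS that had at least 1 read). The PAS 497 nt before it (47133010) had 63 and 42 reads under gNT and 62 and 54 under gUSE, a usage of 9.70% ± 1.06 and 9.74% ± 1.03. Reads at both of these keep all 5 let-7 sites.

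The shorter forms of IGF2BP1 were rare. The PAS 3319 nt before the annotated end (47130188) lies between the second and the third let-7 site, so that 2 of 5 sites remain, and it had 7 and 4 reads under gNT and 6 and 4 under gUSE. The PAS 6355 nt before the end (47127152) leaves 346 nt of 3′ UTR and no let-7 site, and it had 15 and 13 reads under gNT and 30 and 11 under gUSE. Its 30 reads in gUSE replicate 1 made up 4.36% of the reads of the gene (Wilson 95% interval 3.07 to 6.16%), above the 2.49% and 2.77% of the gNT libraries, but gUSE replicate 2 was below them with 2.13%. The PAS at 47112108, upstream of the UTR, had 1 to 5 reads. In all, 95.8% ± 0.452 of the expressed reads kept all 5 sites under gNT and 95.4% ± 1.88 under gUSE, and the mean number of sites per read was 4.81 ± 0.0183 and 4.79 ± 0.0928 (SD, n = 2). The 5 PASs had adjusted p = 1.00 in edgeR, and the test over the whole gene gave 0.976.

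IGF2BP1 is also a gene that the study targeted in other experiments, with gRNAs against its distal PAS that were not used in these libraries. Their targets are shown because they lie just before the end that carried most reads.
IGF2BP1-g1: gccacaaaccacttcattttgc
IGF2BP1-g2: tcccgtgaaggttgtttcagcc
IGF2BP1-g1 matches chr17:49056081-49056102 and IGF2BP1-g2 chr17:49056062-49056083 (GRCh38, plus strand), both in the 3′ UTR in the last exon, 43 and 62 nt before the annotated end and past the last let-7 site. IGF2BP1-g2 had no other exact match on the main chromosomes, and IGF2BP1-g1 had 1, at chr10:28668191-28668212. The target of gUSE itself is in the reporter, and its best match in the canonical transcripts of the 6 genes had 7 (HMGA2) to 11 (HMGA1) mismatches.

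IGF2BP2 had few reads and ended mostly before its annotated end. The PAS with most reads (chromosome 3, 185361748) lies 829 nt before that end, and 2 other annotated transcripts of the gene end 845 nt before it. It had 38 and 36 reads under gNT and 39 and 17 under gUSE, a usage of 90.9% ± 9.09 (SD, n = 2) under gNT and 89.1% ± 0.592 under gUSE. An mRNA cleaved there keeps the first 2 let-7 sites, which stand 1090 and 1075 nt before the end, and loses the last one. The proximal PAS (185362185) had 7 and 1 reads under gNT and 5 and 2 under gUSE and lies before all 3 sites. If the next choice of the annotated end were right, it would also keep 2. The change in usage was -0.02 for the distal PAS over expressed reads and -0.11 with every PAS that had at least 1 read (adjusted p = 0.932 in edgeR), since the filter left out many reads of this gene. At expressed PASs the groups overlapped, and the gene gave an adjusted p of 0.961 in edgeR.

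IGF2BP3 was the gene with the largest differences in PAS usage between the groups. Its distal PAS (chromosome 7, 23349828 to 23349868), the one paired with the annotated end, had 35 and 30 reads under gNT and 17 and 9 under gUSE. Its usage was 35% (Wilson 95% interval 26.4 to 44.7%) and 43.5% (32.4 to 55.2%) under gNT and 22.1% (14.3 to 32.5%) and 15.3% (8.24 to 26.5%) under gUSE. Both gUSE libraries were below both gNT libraries, and the mean went from 39.2% ± 5.995 to 18.7% ± 4.83 (SD, n = 2), a change of -0.21. A PAS 358 nt before it (23350186) had 5 and 5 reads under gNT and 1 and 0 under gUSE. Another in the UTR, 581 nt before the end (23350409), had 25 and 10 reads under gNT and 22 and 20 under gUSE, and its usage was 19.7% ± 7.43 and 31.2% ± 3.77. The most proximal one (23428227), listed 78399 nt upstream of the distal PAS and far outside the 3′ UTR, had 35 and 24 reads under gNT and 37 and 30 under gUSE, and its usage was 34.9% ± 0.154 and 49.5% ± 1.98. The 4 shares of a gene sum to 1, so that they do not move independently.

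The same reads were also scaled for depth. The distal PAS had 19.4 ± 3.46 CPM under gNT and 7.51 ± 1.97 under gUSE, the other 2 PASs in the UTR, of which one had fewer reads and one a higher usage under gUSE, together had 12.7 ± 2.55 and 12.8 ± 1.09, and the upstream PAS had 17.2 ± 0.371 and 19.9 ± 0.708 (SD, n = 2). These CPM values were not tested. Within the UTR the distal PAS took 53.8% and 66.7% of the reads under gNT and 42.5% and 31.0% under gUSE, a mean of 60.3% ± 9.07 and 36.8% ± 8.11 (SD, n = 2). The 3 PASs in the UTR all lie past its only let-7 site, which stands 1586 nt before the end, so that a shift among them leaves that site in place. Under the next choice of the annotated end, which placed fewer PASs behind a signal, the 3 would lie before the site and none would keep it. The upstream PAS does not include the annotated UTR, and 65.1% ± 0.154 of expressed reads carried the site under gNT and 50.6% ± 1.98 under gUSE.

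The IGF2BP3 differences did not pass the thresholds, an adjusted p under 0.05 with a change in usage over 0.1. In edgeR's diffSpliceDGE over 14965 PASs the distal PAS had an unadjusted p of 0.00829 and an adjusted p of 0.774, and the PAS 358 nt before it had 0.0210 and 1.00. The PAS 358 nt before the distal one passed the read filter only through the gNT libraries. Its test therefore cannot show a lower usage under gUSE. The unadjusted p was 0.128 for the PAS 581 nt before the end and 0.108 for the upstream PAS, both with an adjusted p of 1.00. The test over the whole gene, which includes that PAS, gave an unadjusted p of 0.000895 and an adjusted p of 0.132. Of 4760 genes 0.168% were called. With at least 10 reads, a filter that left that PAS out, edgeR gave the gene 0.00277 and 0.143. Without gNT replicate 2 the unadjusted p of the gene was 0.0297 (adjusted p = 0.754), and without gUSE replicate 2 it was 0.0447 (adjusted p = 0.579). Over the alternatives of processing the adjusted p of the distal PAS was 0.493 to 1.00. Its change was -0.16 without gNT replicate 2 and -0.25 without gNT replicate 1. That of the PAS 581 nt before the end was 0.11 with all libraries and 0.062 without gNT replicate 2. The unadjusted p of the distal PAS was 0.0537 in the DEXSeq-style model in DESeq2.

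Of the 13 PASs tested in IGF2BP1, IGF2BP2, IGF2BP3 and HMGA2, none was called by edgeR or by a DEXSeq-style model in DESeq2, and of all PASs 0% were called by edgeR. Of the 13, 2 had an unadjusted p under 0.05 in edgeR (4.42% of all PASs). Both are in IGF2BP3, and they include the PAS 358 nt before its distal PAS, which passed the read filter only through gNT. Groups did not overlap for 2 PASs that were lower under gUSE (18.3% of all PASs) and 2 that were higher (18.9%), all 4 of them in IGF2BP3. The 2 lower ones include the PAS that passed only through gNT, where the filter favoured a lower value under gUSE. All PASs went through the same filter. With a change over 0.1 as well there were 3, where 8.76% of all PASs met both. For the IGF2BP3 PAS 581 nt before the end that change was 0.11. It fell under 0.1 without gNT replicate 2 (0.062), without gUSE replicate 2 (0.088) and with every PAS that had at least 1 read (0.089).

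The other genes of the let-7 pathway were counted from lists. The PAS table analysed ends within chromosome 7. Genes of any list that lie beyond its end could not be tested in 3′ end sequencing, whatever their expression. Of 23 genes of LIN28 and let-7 processing and of the microRNA effector complex, 22 were tested in RNA-seq and none was called by edgeR (0.0783% of all genes), with a median log2 fold change of -0.0084. An unadjusted p under 0.05 was found for 2 of the 22, beside 7.97% of all genes. In 3′ end sequencing 18 were tested, 1 was called (0.765% of all genes) and 3 had an unadjusted p under 0.05 (11% of all genes). The gene called was KHSRP, which binds let-7 precursors and aids their processing, with 4747 and 4572 CPM under gNT and 6110 and 5718 under gUSE (log2 fold change 0.34 ± 0.0397, adjusted p = 7.96e-08 in edgeR). Its log2 fold change in RNA-seq was -0.0056 (adjusted p = 0.971 in edgeR), and without gUSE replicate 1 its log2 fold change in the 3′ end reads was 0.29, with an adjusted p of 0.0616. LIN28A, the paralog of LIN28B, did not reach the count filter in RNA-seq.

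Of 38 further genes that are known let-7 targets or hold let-7 sites, 36 were tested in RNA-seq and none was called by edgeR (0.0783% of all genes), with 6 at an unadjusted p under 0.05 (7.97% of all genes) and a median log2 fold change of 0.011. In 3′ end sequencing 25 were tested, 2 had an unadjusted p under 0.05 (11% of all genes) and 1 was called (0.765%), NRAS, a small GTPase of the RAS family. NRAS had 230 and 243 CPM under gNT and 173 and 149 under gUSE (log2 fold change -0.54 ± 0.0996, adjusted p = 0.000878 in edgeR), and 0.03 in RNA-seq (adjusted p = 0.854 in edgeR). In the 3′ end reads its log2 fold change was -0.55 in DESeq2 (adjusted p = 0.0810), -0.66 without gUSE replicate 1 (adjusted p = 0.0841) and -0.45 without gUSE replicate 2 (adjusted p = 0.241).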

How the data were processed

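For the 3′ end libraries (QuantSeq REV), the authors trimmed adaptors, aligned reads to hg38 with STAR 2.7.9 and counted uniquely mapped reads at the PASs of PolyA_DB3 with featureCounts; for RNA-seq they counted uniquely mapped reads per gene. The deposited values in both tables are raw counts. The PAS table analysed ends within chromosome 7, PASs of several genes (3.95 to 4.02% of reads) or of none (6.57 to 7.26%) were left out, and strand use in counting is not given in the sources used here.

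Genes with at least 10 counts in 2 or more libraries were tested with edgeR 4.0.16 (glmQLFTest, TMM factors; R 4.3.3), and PAS usage, the share of a gene's expressed reads at a PAS, with diffSpliceDGE, since DEXSeq, which the study used, was not installed. DESeq2 1.42.0 was an alternative. Each standard error was the size of the log2 fold change over the root of F. Wilson 95% intervals cover only the error of counting, because the reads carry no molecular identifiers and PCR copies are not separate molecules. Alternatives covered filters, scaling, PAS merging, the replicate number as a block, and leaving out each library. The edgeR tests were first run on simulated counts, where most of the changes placed in PAS usage were missed. let-7 sites, UTRs and exon lengths came from GENCODE v44. Python 3.11.15 was used otherwise. The members, all lists and the rule for named genes (all 6 members, all their expressed PASs, and of each list at most 4 genes by smallest p) were chosen with earlier results of these data known. The labels were not checked against the reporter, which was not analysed here.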

Additional observations from a re-analysis of the deposited data

How the results depend on the processing

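No member gene or PAS was called in RNA-seq, in 3′ end reads or in PAS usage under any alternative run. Over all genes, 13 were called in RNA-seq, against 1 with DESeq2, 58 without the count filter and 16 to 65 without single libraries. In 3′ end reads 62 were called, against 11 with DESeq2, 41 with all listed PASs and 0 to 50 without single libraries. The replicate block gave 196 and called no member; the study used a paired test for the reporter PAS in these libraries, but what makes same-numbered libraries a pair is not given in the sources used here, and their deviations from the group means correlated at 0.045, or 0.083 among genes with a mean of at least 50 reads. Of all PASs 0 were called, and 1 with at least 10 reads in 2 libraries. At an unadjusted p under 0.05 there were 661 of 14965, against 429 of 8755 with at least 10 reads, 1734 of 59138 with at least 1 read, 247 in DESeq2 and 462 to 651 without single libraries. Where leaving out a library left 1 in a group, the fit assumes that it varies like the other group. With 2 against 2 libraries an exact permutation test cannot go below p = 0.33.

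The distal share of a gene depends on which PASs count. Over all listed PASs it was 82.8% under gNT and 84.7% under gUSE in IGF2BP1, 68.1% and 57.5% in IGF2BP2, 98.6% and 97.5% in LIN28B, and 99.73% and 99.75% in HMGA1. With at least 10 reads it was 87.5% under gNT and 86.8% under gUSE in IGF2BP1. In IGF2BP2, where a single PAS remained, it was 100% in both groups. With PASs within 100 nt merged it was 100% in both groups in HMGA2. Without 7mer-A1 matches IGF2BP1, LIN28B and HMGA2 had 4 let-7 sites each and IGF2BP2 1.

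Small values changed sign when single libraries were left out, and the cause was not tested. RNA-seq log2 fold changes ran from -0.10 to 0.049 for LIN28B, from -0.081 to 0.0046 for IGF2BP3 and from -0.020 to 0.0085 for KHSRP, which was 0.0042 with library totals. Usage changes ran from -0.028 to 0.067 for the inner and from -0.067 to 0.028 for the outer PAS of HMGA2, from -0.082 to 0.046 for the distal and from -0.046 to 0.082 for the proximal PAS of IGF2BP2. In IGF2BP1 they ran, from proximal to distal, from -0.0027 to 0.0034, from -0.0050 to 0.017, from -0.0071 to 0.0078 (the PAS 497 nt before the end) and from -0.016 to 0.0056, and the last was 0.019 with at least 1 read.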

Other observations

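The transcripts that host let-7 genes and other genes of fetal tissue were counted too. Of 7 host transcripts listed, 4 were tested in RNA-seq and none was called by edgeR (0.0783% of all genes), with 1 at an unadjusted p under 0.05 (7.97% of all genes). MIRLET7A1HG had 93 and 88 counts under gNT and 81 and 67 under gUSE, and MIR99AHG 66 and 68 under gNT and 58 and 35 under gUSE. MIRLET7IHG had 64 and 70 counts under gNT and 64 and 62 under gUSE. HUWE1, the ubiquitin ligase whose intron holds a let-7 copy and miR-98, had 933 and 924 CPM under gNT and 895 and 885 under gUSE (log2 fold change -0.06 ± 0.0225, adjusted p = 0.491 in edgeR). These counts are of the host transcripts and say nothing of the mature microRNAs.

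Of 11 other genes of fetal tissues and tumours, 6 were tested in RNA-seq and none was called by edgeR (0.0783% of all genes), and none had an unadjusted p under 0.05 (7.97% of all genes). Their median log2 fold change was -0.05, beside 0.00082 over all genes. IGF2, a fetal growth factor whose mRNA the IGF2BP proteins were named for, was low, with 65 and 37 counts under gNT and 29 and 32 under gUSE. SOX2, a transcription factor of stem cells, had 112 and 108 counts under gNT and 113 and 86 under gUSE.

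The mean profile of the 6 genes over the 8 libraries was close to flat, since in the 3′ end reads members that were higher and members that were lower under gUSE cancelled in the mean, so that it describes no single member. Among 2853 other genes with a mean of at least 100 counts in both assays, those nearest to it were NUP153, CANX and SOD1, at a root mean square difference of 0.0148, 0.0150 and 0.0164 on the log2 scale, where the median gene was at 0.0891.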
